A study of Homo sapiens with 6 samples.

Results

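Plexins and neuropilins, the cell-surface receptors of semaphorins, were followed with a pair of their secreted ligands in the immortalised human chondrocyte line TC28a2. The genes were PLXNA1, PLXNA2, PLXNA3, PLXNB1, PLXNB2, PLXND1, NRP1, NRP2, SEMA3A and SEMA3C, matched to the deposited counts by Entrez gene ID. All 10 were found among the 28395 genes of the table, and all 10 passed the filter on low counts. Cells had been transfected with a vector for overexpression of FAP (fibroblast activation protein, a membrane serine protease of activated fibroblasts) or with a control vector. The labels state no other modification of the cells. RNA was taken 48 hours after transfection, and 3 DRUG-seq libraries, a pooled and inexpensive RNA sequencing format, were made per group. The cells are 1 line, and separate cultures per replicate are not stated in the labels, so the spread between libraries may be technical, as may the p-values that rest on it. PLXNA2 was placed in this list because an earlier reading of the same comparison had called it lower, and the rest were chosen with those results known. Fold changes of these 10 genes are therefore descriptions, given with their error and no p-value.

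Semaphorins are guidance proteins, known best for steering axons and vessels. Secreted class 3 semaphorins mostly bind a neuropilin, which has only a short cytoplasmic tail, and signal through a plexin beside it. The cytoplasmic part of plexins holds a GTPase-activating domain for small Rap GTPases and acts on adhesion and the cytoskeleton. Semaphorin 3A and its receptors are also known in skeletal tissue, where they take part in bone and cartilage development.

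Depth and the state of the libraries set the precision of what follows. Total counts were 6275038 to 13839743 in the FAP vector libraries and 5736056 to 12446373 in the control vector libraries. FAP vector replicate 3 stood apart from FAP vector replicates 1 and 2, with a chi-square per degree of freedom of 17.5 and 16.7, against 6.06 between those and 5.5 to 7.23 between control vector libraries. FAP itself was at 222.8, 224.6 and 350.8 CPM in the FAP vector libraries, against 0, 1.20 and 0.396 CPM in the control vector libraries, so FAP levels went with the labels in each of the 6 libraries. CPM here are gene counts relative to library size, with TMM scaling between libraries. Of 14 chondrocyte markers only SOX9 had more than 10 counts in every library, and CHAD had none in any. COL2A1 and ACAN, which define mature cartilage, had at most 4 and 15 counts in a library. The summed chondrocyte markers were at 34.9 to 45.4 CPM in FAP vector libraries and 27.2 to 36.1 CPM in control vector libraries. Most of this sum was SOX9, at 31.4 to 42.6 CPM with the FAP vector and 22.7 to 31.9 CPM with the control vector, with overlap. ACAN went the other way, at 0.319 to 0.847 CPM with the FAP vector and 0.871 to 1.64 CPM with the control vector. Summed markers of endothelial cells (7 genes) were at 3.74 to 5.27 CPM with the FAP vector and 2.19 to 5.57 CPM with the control vector, and CDH5 was at 0 in every library. Neuronal markers (7 genes) summed to 3.63 to 4.09 CPM with the FAP vector and 1.86 to 3.65 CPM with the control vector, and none was at 0 in every library. Macrophage and leukocyte markers (7 genes) summed to 7.34 to 9.25 CPM with the FAP vector and 7.76 to 8.59 CPM with the control vector, with AIF1 at 0 throughout. CSF1R and LAPTM5 of that list had more than 10 counts in every library. PECAM1 (endothelial), SNAP25 (neuronal) and CD14 (macrophage) lay wholly higher with the FAP vector, each at 37 counts or fewer per library. The groups overlapped in the other endothelial, neuronal, macrophage and leukocyte markers. The part of these marker levels in the results below was not tested. In bulk RNA, fewer cells expressing a gene and less of its RNA per cell cannot be told apart.

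The annotated upstream sequences of 3 of these genes are printed for reference, and whether these starts are used in TC28a2 cells was not tested. PLXNA2 is the receptor that was lower with the FAP vector, PLXNA1 is a class A relative whose groups overlapped, and NRP2 had the highest positive fold change of the 10. Each run is the 250 bases before the annotated RefSeq start in GRCh38.p14, written 5′ to 3′ on the gene's strand, with GC boxes (GGGCGG on either strand, overlapping matches joined) in capitals. PLXNA2 lies on the minus strand (chr1:208244385-208244634), PLXNA1 on the plus strand (chr3:126982865-126983114) and NRP2 on the plus strand (chr2:205682251-205682500).
PLXNA2: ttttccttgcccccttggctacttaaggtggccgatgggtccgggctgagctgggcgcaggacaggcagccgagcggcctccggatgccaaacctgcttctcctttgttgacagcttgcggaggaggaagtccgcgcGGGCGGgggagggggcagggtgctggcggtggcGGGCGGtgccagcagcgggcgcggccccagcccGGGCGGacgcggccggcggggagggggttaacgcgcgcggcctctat
PLXNA1: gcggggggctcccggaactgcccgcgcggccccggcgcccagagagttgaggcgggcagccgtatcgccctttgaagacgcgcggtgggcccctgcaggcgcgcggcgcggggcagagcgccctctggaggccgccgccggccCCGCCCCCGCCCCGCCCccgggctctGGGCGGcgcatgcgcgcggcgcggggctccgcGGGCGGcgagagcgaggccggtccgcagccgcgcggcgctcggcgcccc
NRP2: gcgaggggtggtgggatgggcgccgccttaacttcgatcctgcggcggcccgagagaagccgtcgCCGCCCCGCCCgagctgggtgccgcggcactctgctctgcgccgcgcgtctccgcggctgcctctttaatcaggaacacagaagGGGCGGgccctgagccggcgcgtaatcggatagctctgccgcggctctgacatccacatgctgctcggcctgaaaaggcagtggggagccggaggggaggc
The PLXNA2 run held 3 GC boxes, the PLXNA1 run 5 and the NRP2 run 3, and 42.6% of 35116 promoters of the same length held at least 1. GC content was 72.4%, 84.4% and 70.0% in that order, against a median of 58.0% over all promoters. The letters CAGGTG on either strand, the E-box bound by ZEB factors, which the series title names, occurred in none of the 10 promoter entries listed for 8 of these genes, against 17.5% of all promoters. The general E-box CANNTG, which includes CAGGTG, occurred once upstream of NRP2 and not upstream of PLXNA2 or PLXNA1, against 61.8% of all promoters. These are matches of letters only and say nothing of binding.

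PLXNA2, a class A plexin that receives SEMA3A together with a neuropilin and class 6 semaphorins directly, was the member with the largest change and the only 1 called. It had 86, 201 and 195 counts in FAP vector replicates 1, 2 and 3, against 102, 248 and 338 in control vector replicates 1, 2 and 3. At a common scale these were 13.7, 14.2 and 14.5 CPM in the FAP vector libraries, against 18.6, 27.1 and 26.8 CPM in the control vector libraries. All FAP vector libraries lay below all control vector libraries, the FAP vector libraries within 1 CPM of each other, and control vector replicate 1 lay nearest to them. PLXNA2 averaged 14.1 ± 0.368 CPM with the FAP vector and 24.2 ± 4.79 CPM with the control vector (SD, n = 3 each). The log2 fold change was -0.79 (SE 0.16, 95% interval -1.12 to -0.46), FAP vector minus control vector, from edgeR's quasi-likelihood fit over 13373 genes.

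**Figure D1:**
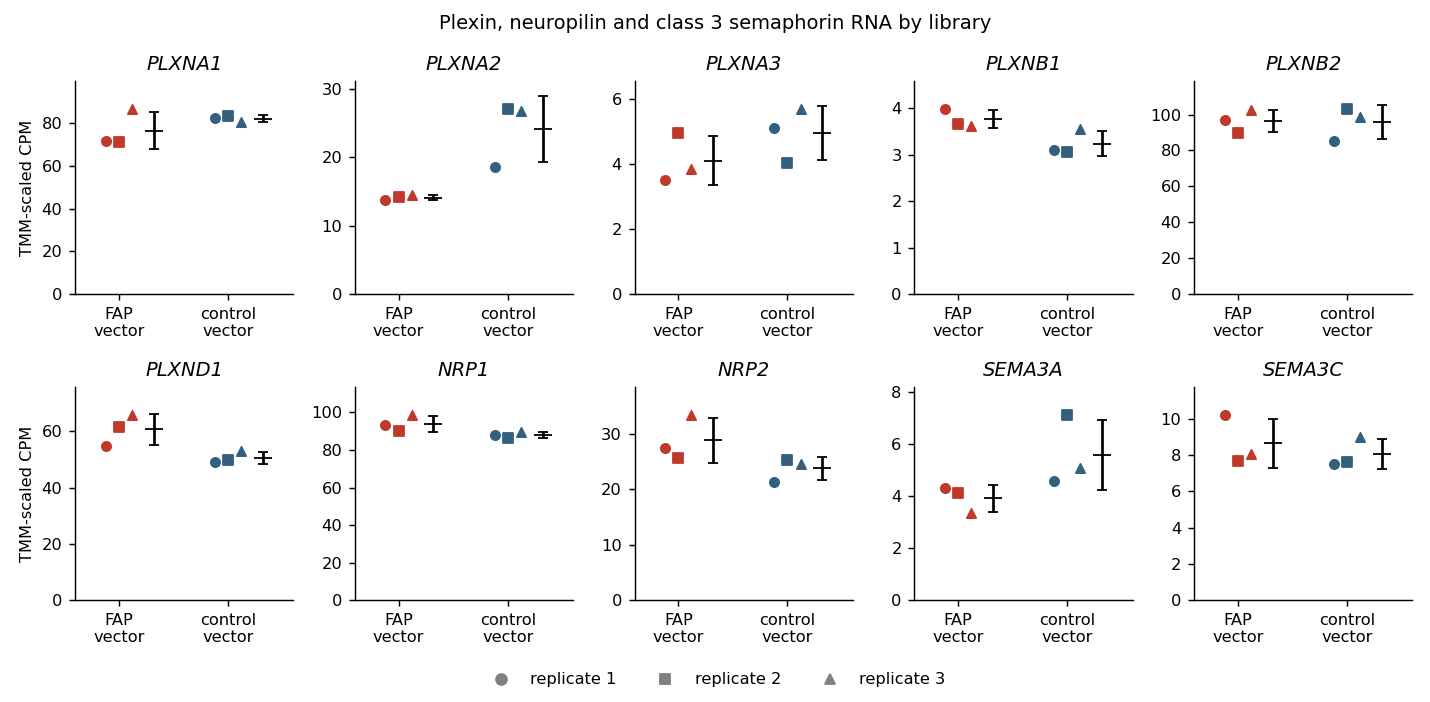
TMM-scaled CPM (y axis, from 0) of each gene in the 3 FAP vector libraries (red, left) and the 3 control vector libraries (blue, right); marker shapes give the replicate number, and the black bar is the mean ± SD. PLXNA2 sits at 13.7 to 14.5 CPM in FAP vector libraries, below its 18.6 to 27.1 CPM in control vector libraries.

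Called means an adjusted p under 0.05 over all tested genes. By this rule 1 of the 10 genes was lower and 0 were higher, where 0.127% of all tested genes were called lower and 0.0972% higher. With an unadjusted p under 0.05 there were 2 of the 10, the other being PLXND1, where 9.91% of all tested genes passed the same limit. DESeq2 gave an adjusted p to 6 of the 10, called PLXNA2 lower (log2 fold change -0.79, SE 0.20) and called none of those 6 higher. Over the whole table DESeq2 called 72 genes lower and 26 higher among 21180 with a count. Some of these had no adjusted p, so no share is given. Because PLXNA2 entered the list for this call and the others were chosen with the results known, these counts carry no weight of their own. The call was lost without control vector replicate 2 (log2 fold change -0.70), control vector replicate 3 (-0.71), FAP vector replicate 1 (-0.77) or FAP vector replicate 2 (-0.79). It held without FAP vector replicate 3, the library that stood apart (-0.81), and without control vector replicate 1 (-0.93). Over all tested genes the fit without FAP vector replicate 3 called 139 lower and 109 higher, against 17 and 13 with all libraries. The fit without control vector replicate 1 called 3 lower and 1 higher. Across 14 other settings the fold change stayed between -0.93 and -0.70, and PLXNA2 was called in 7 of them. The call was also lost with library totals in place of TMM, with a filter at 10 CPM and with thinned counts.

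**Figure D2:**
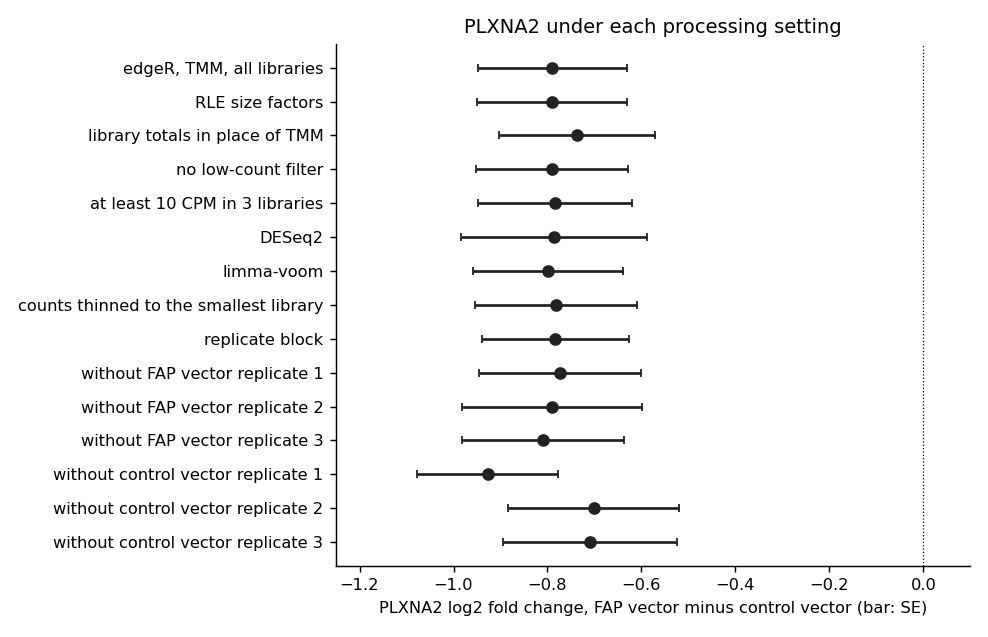
PLXNA2 log2 fold change (x axis, FAP vector minus control vector; bars are SE) from the fit with all libraries (top) and under 14 other settings. Values lie between -0.93 and -0.70.

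The lower PLXNA2 level also appeared as a smaller share of plexin counts within each library, a measure that needs no scaling between libraries. PLXNA2 made up 5.61%, 5.78% and 5.22% of the counts of the 6 plexins in the FAP vector libraries, against 7.66%, 10.004% and 9.97% in the control vector libraries. The groups did not overlap, and their means were 5.54 ± 0.287% with the FAP vector and 9.21 ± 1.34% with the control vector (SD, n = 3 each). There were 19.2, 19.9 and 16.7 PLXNA2 counts per 100 PLXNA1 counts in the FAP vector libraries, against 22.7, 32.4 and 33.2 in the control vector libraries. The 6 plexins summed to 256 ± 18.3 CPM with the FAP vector and 261 ± 15.3 CPM with the control vector, and these groups overlapped. These shares use the same counts as the fold change and are no separate evidence of it.

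PLXND1, a vascular plexin that SEMA3E binds without a neuropilin, had a share 4.27 percentage points higher with the FAP vector, while that of PLXNA2 was lower by 3.68 points (FAP vector minus control vector -3.68). It made up 22.4%, 25.0% and 23.8% of plexin counts in the FAP vector libraries, against 20.1%, 18.4% and 19.8% in the control vector libraries. Shares within a library add up to the whole, so a lower PLXNA2 share by itself raises those of the other plexins. PLXND1 levels were 54.7, 61.3 and 65.7 CPM in FAP vector libraries, against 49.0, 49.8 and 53.0 CPM in control vector libraries. The groups did not overlap, though FAP vector replicate 1 lay less than 2 CPM above control vector replicate 3. The log2 fold change of 0.26 (SE 0.11, 95% interval 0.03 to 0.49) was not called, and it was 0.20 without FAP vector replicate 3.

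**Figure D3:**
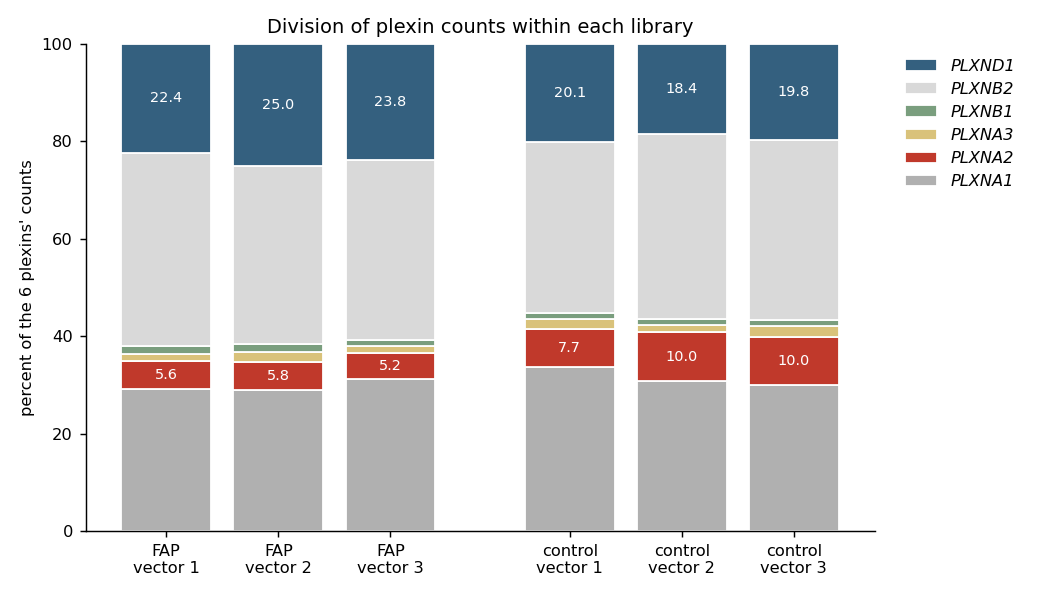
Stacked bars give the percent of the 6 plexins' counts (y axis) taken by each plexin in each of the 3 FAP vector and 3 control vector libraries; the printed figures are the shares of PLXNA2 (red) and PLXND1 (blue). PLXNA2 takes 5.22% to 5.78% in FAP vector libraries and 7.66% to 10.004% in control vector libraries.

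The other class A plexins had overlapping groups. PLXNA1, a main signalling partner of NRP1 for SEMA3A, was at 71.7, 71.3 and 86.7 CPM in FAP vector libraries, against 82.2, 83.6 and 80.5 CPM in control vector libraries. FAP vector replicate 3 lay above every control vector library and the other two FAP vector libraries lay below all of them. Its log2 fold change was -0.10 (SE 0.11, interval -0.32 to 0.12), and ran from -0.20 without FAP vector replicate 3 to -0.05 without FAP vector replicate 1 or 2. PLXNA3, which receives SEMA3F together with NRP2, was at 3.51, 4.94 and 3.85 CPM in FAP vector libraries, against 5.11, 4.04 and 5.70 CPM in control vector libraries. Its log2 fold change of -0.25 had a wide interval, -0.84 to 0.33, at 22 to 72 counts per library, and ran from -0.42 without FAP vector replicate 2 to -0.12 without control vector replicate 3 (-0.38 without control vector replicate 2). PLXNA2 itself had 86 to 338 counts, where counting alone gives a coefficient of variation of 10.8% at the lowest and 5.4% at the highest.

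The class B plexins PLXNB2 and PLXNB1 differed widely in depth, and neither was called. PLXNB2, a receptor of SEMA4C, had 466 to 1381 counts per library. It was at 97.2, 89.9 and 102.3 CPM in FAP vector libraries, against 85.1, 103.2 and 98.7 CPM in control vector libraries. Its groups overlapped, with a log2 fold change of 0.01 (SE 0.10, interval -0.21 to 0.22) that ran from -0.0663 to 0.0695 with single libraries left out. PLXNB1, the receptor of SEMA4D, was at 3.99, 3.67 and 3.63 CPM in FAP vector libraries, against 3.11, 3.06 and 3.56 CPM in control vector libraries. The groups did not overlap, but the gap between FAP vector replicate 3 and control vector replicate 3 was under 0.1 CPM, and counting alone gives a coefficient of variation of 24.3% at the lowest count, 17. The log2 fold change was 0.20 (SE 0.31, interval -0.44 to 0.83).

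Both neuropilins were at slightly higher values with the FAP vector, and neither was called. NRP1, the co-receptor of SEMA3A and of VEGF-A, was at 93.2, 90.1 and 98.6 CPM in FAP vector libraries, against 87.9, 86.5 and 89.7 CPM in control vector libraries. The groups lay less than 1 CPM apart at their nearest, and the log2 fold change was 0.09 (SE 0.10, interval -0.11 to 0.30), or 0.06 without FAP vector replicate 3. NRP2, the co-receptor of SEMA3F and VEGF-C, was at 27.5, 25.7 and 33.4 CPM in FAP vector libraries, against 21.4, 25.4 and 24.6 CPM in control vector libraries. These groups too were apart only narrowly, and the log2 fold change of 0.27 (SE 0.14, interval -0.01 to 0.56) was 0.14 without FAP vector replicate 3. NRP2 made up 22.8%, 22.2% and 25.3% of neuropilin counts in FAP vector libraries, against 19.6%, 22.7% and 21.5% in control vector libraries, with overlap.

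The secreted ligands lay at low levels. SEMA3A, the repulsive ligand of NRP1 with class A plexins, had 27, 58 and 45 counts in FAP vector libraries, against 25, 65 and 64 in control vector libraries. It was at 4.31, 4.09 and 3.34 CPM in FAP vector libraries, against 4.57, 7.10 and 5.07 CPM in control vector libraries. All FAP vector libraries lay below all control vector libraries, by less than 0.3 CPM at the nearest. The log2 fold change was -0.54 (SE 0.28, interval -1.12 to 0.05), and it ranged from -0.64 without control vector replicate 1 to -0.32 without control vector replicate 2. SEMA3C, a class 3 ligand that binds both neuropilins, was at 10.2, 7.69 and 8.08 CPM in FAP vector libraries, against 7.49, 7.65 and 9.02 CPM in control vector libraries. Its groups overlapped (log2 fold change 0.07, SE 0.21, interval -0.37 to 0.51), and each of the 6 left-out libraries moved this value by over 1.5 times, with a range of -0.04 to 0.17.

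In 6 of the 10 genes the groups did not overlap, 2 with the FAP vector lower (PLXNA2 and SEMA3A) and 4 with it higher (PLXNB1, PLXND1, NRP1 and NRP2). Among all tested genes 7.99% were wholly lower and 7.96% wholly higher, and since the list was chosen on this comparison nothing is read from the count. The median log2 fold change was 0.04 over the 10 genes and 0.00 over all tested genes (0.00313 before rounding).

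**Figure D4:**
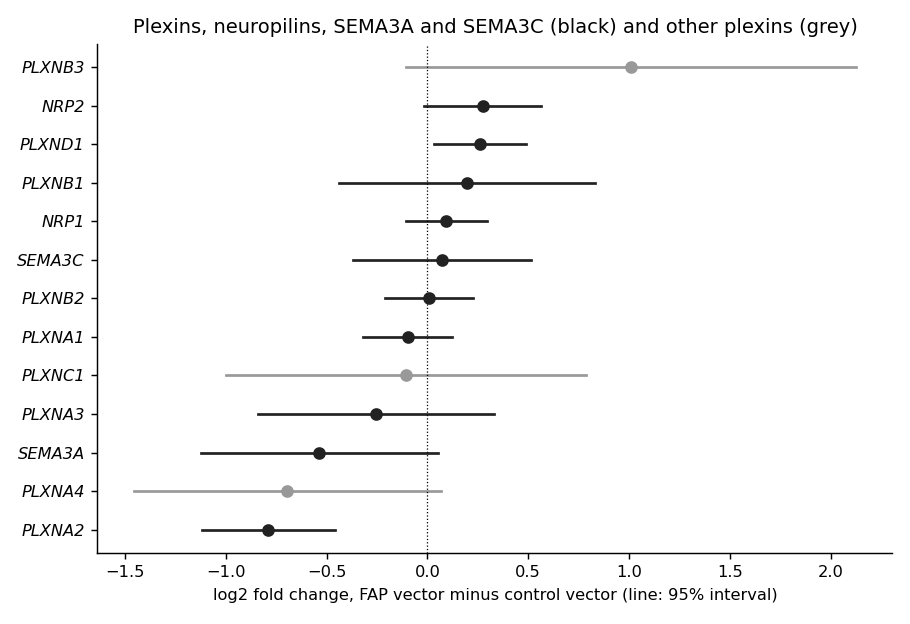
Log2 fold change (x axis, FAP vector minus control vector) with its 95% interval for the 10 genes (black) and for PLXNA4, PLXNB3 and PLXNC1 (grey). PLXNA2 lies lowest at -0.79, and NRP2 and PLXND1 are the highest of the black points at 0.27 and 0.26. Only the intervals of PLXNA2 and PLXND1 leave out 0, and since the genes were chosen on this comparison nothing is read from that.

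Per kilobase of the longest annotated protein-coding transcript, levels spanned a wide range and kept much of their order. DRUG-seq is generally described as reading from the poly(A) end, where length matters less, so this order is approximate. In FAP vector libraries the order ran from NRP1 (16.0 ± 0.726 CPM per kb, SD, n = 3) and PLXNB2 (15.1 ± 0.975) through PLXND1 (8.54), PLXNA1 (8.44), NRP2 (4.33), SEMA3C (1.67), PLXNA2 (1.23 ± 0.0323), PLXNB1 (0.515) and SEMA3A (0.476) to PLXNA3 (0.377). In control vector libraries it ran from PLXNB2 (14.99 ± 1.48 CPM per kb) and NRP1 (14.96 ± 0.268) through PLXNA1 (9.05), PLXND1 (7.13), NRP2 (3.57), PLXNA2 (2.11 ± 0.419), SEMA3C (1.56), SEMA3A (0.678) and PLXNA3 (0.455) to PLXNB1 (0.444). Neighbours whose library values overlapped with the FAP vector were NRP1 and PLXNB2, PLXND1 and PLXNA1, PLXNB1 and SEMA3A, and SEMA3A and PLXNA3. With the control vector they were PLXNB2 and NRP1, PLXNA2 and SEMA3C, and PLXNA3 and PLXNB1. On this scale PLXNA2 lay below SEMA3C by mean with the FAP vector and above it by mean with the control vector. In CPM not divided by length PLXNA2 lay above SEMA3C in both groups. The means were 14.1 and 8.66 CPM with the FAP vector, and 24.2 and 8.05 CPM with the control vector.

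Reads of one plexin could in principle be counted at another. Of the 11395 stretches of 50 bases in the longest PLXNA2 transcript, 10 occurred in another gene, in each case PLXNA3. PLXNA1 shared 1 stretch with another gene, also PLXNA3. PLXNA3 shared 224 of 10836 with 117 genes, and the other 7 members shared none. Read length is not given in the sources used here, so 50 bases is a chosen length. No gene counted in the table overlaps PLXNA2 (chromosome 1, 208022242 to 208244384, GRCh38.p14). However, 4 annotated genes that are not counted there do overlap it, and whether their reads add to PLXNA2 was not tested. PLXNA3 overlaps LAGE3 by 5 bases. PLXNA1 and PLXND1 lie 2.57 Mb apart on chromosome 3, and SEMA3A and SEMA3C lie 3.21 Mb apart on chromosome 7. PLXNB1 is also on chromosome 3, and the remaining 4 genes are on chromosomes X (PLXNA3), 22 (PLXNB2), 10 (NRP1) and 2 (NRP2).

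Across the 6 libraries the genes whose levels ran most like PLXNA2 were SRPX2, DHODH, SENP5, LIMK2 and KIFC3, with Pearson correlations of 0.988, 0.987, 0.974, 0.973 and 0.971 on the log2(CPM + 1) scale, among 8665 genes that averaged 10 CPM or more. These correlations include the difference between groups and rest on 6 points, so they are a description. SRPX2, a secreted protein, was at 12.6 CPM with the FAP vector and 18.5 CPM with the control vector (means of 3). Its control vector replicate 1, at 15.3 CPM, was the lowest of its group, as in PLXNA2 and in DHODH, SENP5, LIMK2 and KIFC3. SENP5, a SUMO protease, was at 91.1 CPM with the FAP vector and 132.3 CPM with the control vector. LIMK2, a kinase of cofilin that is also on the list of cytoskeletal effectors, was at 16.4 CPM with the FAP vector and 19.5 CPM with the control vector (log2 fold change -0.25, adjusted p = 0.59, edgeR). Among the other 9 genes of the 10 the correlation with PLXNA2 ran from -0.67 in PLXND1 to 0.83 in SEMA3A.

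Depth varied across the rest of the plexin and semaphorin families. All 9 plexins on the lists, 2 neuropilins and 13 of 20 semaphorins could be tested, and 4 plexins, 2 neuropilins and 7 semaphorins reached a mean of 10 CPM in a group. No gene of the 6 wider pathway lists was called in either direction (0 of 65 tested, of 80 listed). Over all tested genes 0.224% were called, so 0 of 65 is near that share and nothing is read from it. With an unadjusted p under 0.05 there were 5 of the 65, where 9.91% of all tested genes passed. DESeq2 called 0 of the 46 it gave an adjusted p. It called 72 genes lower and 26 higher among 21180 with a count, some of which had no adjusted p. The median log2 fold change of the 65 was 0.02.

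PLXNA4, the remaining class A plexin, was at 2.71, 4.09 and 1.71 CPM in FAP vector libraries, against 2.56, 6.12 and 4.83 CPM in control vector libraries. The groups overlapped (log2 fold change -0.69, SE 0.37, adjusted p = 0.549, edgeR). This value was -1.12 without FAP vector replicate 2, -0.43 without control vector replicate 2 and -0.40 without FAP vector replicate 3. PLXNB3 had 8, 18 and 82 counts in FAP vector libraries, against 6, 16 and 19 in control vector libraries. Its log2 fold change of 1.01 (SE 0.54, adjusted p = 0.549, edgeR) rested on FAP vector replicate 3, without which it was -0.22.

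Among semaphorins SEMA7A, a membrane-anchored ligand of PLXNC1 and integrins, was the most abundant tested member of its family per kilobase, at 29.6 ± 4.25 CPM per kb with the FAP vector and 35.3 ± 0.622 CPM per kb with the control vector. It was at 83.3, 108.3 and 108.0 CPM in FAP vector libraries, against 120.9, 116.8 and 119.5 CPM in control vector libraries. The groups did not overlap, with a log2 fold change of -0.25 (SE 0.11, adjusted p = 0.454, edgeR), or -0.14 without FAP vector replicate 1. SEMA4D, the ligand of PLXNB1, had 0.30 (SE 0.20, adjusted p = 0.653, edgeR), or 0.15 without control vector replicate 3. Of the class 3 ligands SEMA3F and SEMA3D had -0.33 and -0.32 (adjusted p = 0.68 and 0.822, edgeR). SEMA3F was at -0.12 without FAP vector replicate 3 and -0.13 without control vector replicate 2. Of 5 further class 3 semaphorins 3 were tested, with 1 positive and 2 negative values (median -0.32). Of 13 transmembrane and anchored semaphorins 8 were tested, with 4 positive and 4 negative values (median 0.04).

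Neuropilin partners and the intracellular arms of the pathway were near the all-gene median. Of 20 co-receptor, growth factor and processing genes 16 were tested, 5 with positive and 11 with negative values (median -0.07). FLT1, a VEGF receptor, was at 29.2, 27.7 and 28.8 CPM in FAP vector libraries, against 36.5, 28.6 and 40.3 CPM in control vector libraries, with overlap (log2 fold change -0.30, adjusted p = 0.458, edgeR, and -0.18 without control vector replicate 3). GIPC1, which binds the neuropilin tail, had -0.18 (adjusted p = 0.602, edgeR), with -0.09 without FAP vector replicate 1 and -0.28 without FAP vector replicate 3. Of 19 GTPases and their regulators 16 were tested, 10 positive and 6 negative (median 0.03). RHOA, the GTPase of actomyosin contraction, was at 446.5, 451.8 and 548.5 CPM in FAP vector libraries, against 571, 605.5 and 573.2 CPM in control vector libraries. The groups did not overlap, with a log2 fold change of -0.27 (SE 0.11, adjusted p = 0.391, edgeR). Without FAP vector replicate 3 it was -0.38 and called (adjusted p = 0.0288, edgeR). That fit called 139 genes lower and 109 higher of 13305 tested, and RHOA was the only 1 of 64 tested pathway genes called. RAP2A, a Rap GTPase, had 0.19 (adjusted p = 0.658). Of 20 cytoskeletal effectors 19 were tested, 14 positive and 5 negative (median 0.04). MICAL3, a flavoprotein monooxygenase of the MICAL family, which acts downstream of plexins, had 0.38 (SE 0.16, adjusted p = 0.445, edgeR), or 0.18 without FAP vector replicate 3. CDK5, a kinase of SEMA3A signalling, had 0.31 (SE 0.14, adjusted p = 0.458, edgeR), or 0.18 without control vector replicate 1, and both genes had overlapping groups.

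**Figure D5:**
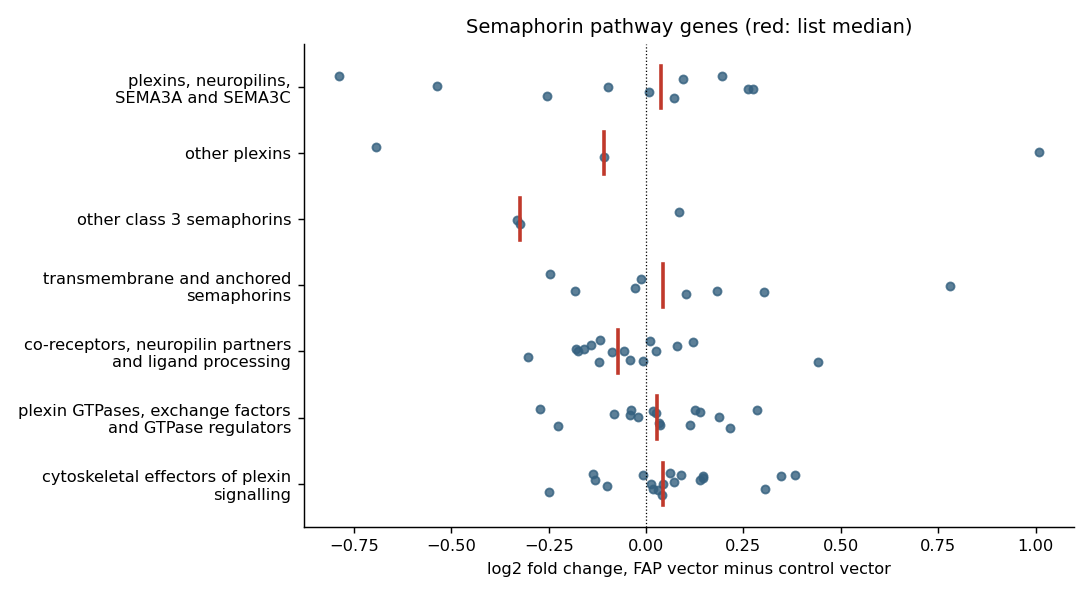
Log2 fold changes (x axis, FAP vector minus control vector) of the tested genes of each list, 1 point per gene, with the list median as a red line. List medians lie between -0.32 and 0.04, and no gene of the lower 6 lists was called.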

How the data were processed

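Raw read counts per Entrez gene for 6 libraries were deposited by the authors in a single table without normalization, and each column named the group and replicate of 1 sample. Per the submitters' processing notes, HISAT2, featureCounts and Subread were used with GRCh38. Not given in the sources used here are versions, the strand setting, how multiple alignments were treated and whether molecular identifiers were counted. Without strand or molecular identifiers, antisense reads and amplification copies would add to a gene's count. Of 28395 IDs, 27745 matched a symbol in NCBI's RefSeq gene table (GRCh38.p14). That table and RefSeq promoter sequences gave positions and upstream sequence, and GENCODE release 29 gave transcript lengths.

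The analysis ran in R 4.3.3. Counts were scaled by TMM and fitted in edgeR 4.0.16 with no covariate. Low counts were removed by filterByExpr (per group, count minimum 10 and total minimum 15), and genes were tested two-sided by the quasi-likelihood method. P-values were adjusted by Benjamini-Hochberg over 13373 genes, and SEs were derived from the log2 fold change and its F statistic. The spread between replicates beyond counting error, edgeR's common coefficient of variation, was 11.8% and may be technical. The fit was tested on simulated data with 200 changed genes, in which all genes had the common spread between libraries. That setting held no library that stood apart as FAP vector replicate 3 did, so it does not cover that case. Alternatives used DESeq2 1.42.0, limma-voom (limma 3.58.1), other scalings and filters, thinned counts, a replicate block and each library left out. Figures used matplotlib 3.10.9.

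The genes and lists were chosen with earlier results of these data known. The naming rule took all 10 genes and FAP, from each pathway list every called gene or else the 2 with the smallest p, and the 5 genes most correlated with PLXNA2. Intervals cover the spread between libraries, and counting coefficients of variation cover counting error only.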

Additional observations from a re-analysis of the deposited data

How the results depend on the processing

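PLXNA2 kept its sign in all 14 alternatives and its call in 7. It was not called with library totals in place of TMM (log2 fold change -0.74), when genes had to reach 10 CPM in 3 libraries (-0.78), or with counts thinned to the smallest library (-0.78). Left-out libraries gave -0.93 to -0.70, and the call was lost in 4 of these 6 fits. The count of the 10 genes called lower was accordingly 0 with library totals, with the 10 CPM filter and with thinned counts, and 0 to 1 with a library left out. The cause was not tested. None of the 10 was called higher in the 12 alternatives that tested all of them, nor any of the 6 tested under DESeq2 and the 10 CPM filter (PLXNA3, PLXNB1, SEMA3A and SEMA3C had no adjusted p there). Genes called over the whole table numbered 17 lower and 13 higher, against 72 lower and 26 higher with DESeq2, 98 lower and 54 higher with no low-count filter, 6 lower with library totals, 10 lower and 6 higher with thinned counts, 7 higher with limma-voom, and 2 to 139 lower and 1 to 109 higher with a library left out. Among pathway genes 0 were called lower, or 0 to 1 with a library left out, the 1 being RHOA without FAP vector replicate 3. With single libraries left out SEMA3C ran from -0.0418 (without FAP vector replicate 1) to 0.17, PLXNB2 from -0.0663 (without control vector replicate 1, and -0.0419 without FAP vector replicate 3) to 0.0695, and PLXNB3 from -0.22 (without FAP vector replicate 3) to 1.40. With the replicate number as a block the PLXNA2 log2 fold change was -0.78 and 28 genes were lower and 16 higher. Deviations of same-numbered libraries correlated at -0.07, 0.10 and -0.01, and those of differently numbered libraries at -0.135 to 0.128. With such similar ranges these values cannot tell whether same-numbered libraries shared a culture. The labels do not state a pairing, so the main fit had no block. PLXNA3, PLXNB1 and SEMA3A, at 17 to 72 counts, are limited by depth.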
